A study of Mus musculus with 8 samples.

Results

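The MHC class II presentation genes described here are 10 mouse genes, taken as a list of gene symbols. They are H2-Aa, H2-Ab1, H2-Eb1, H2-DMa, H2-DMb1, H2-DMb2, H2-Oa, H2-Ob, Cd74 and Ciita. Each was matched to 1 identifier in the count table, so that they made up 10 of 51826 genes. All 10 were among the 16484 genes that passed the filter on low counts.

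RNA sequencing was performed on total splenocytes, the mixed cells recovered from the spleen, of 8 BALB/c mice that were 3 months old. The 4 tRA mice had received all-trans-retinoic acid (tRA), the active metabolite of vitamin A, at 1 mg/kg body weight by mouth every day from weaning. The 4 control mice had received the vehicle, canola oil. No mouse in either group had been injected with pristane, the hydrocarbon oil used elsewhere in the study to induce lupus, so the comparison asks what tRA alone changes in the spleen. The treatment text in the sample labels gives the tRA dose for all 8 samples, and the groups follow the sample titles, which mark 4 samples as controls. The labels number separate samples in each group, and p-values here measure the spread between those samples.

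MHC class II molecules carry peptides from endosomes to the surface of B cells, dendritic cells and macrophages, where CD4 T cells read them. Newly made alpha and beta chains bind the invariant chain, which is later cut away, and the DM molecule then exchanges its remnant for peptides while the DO molecule restrains DM. Transcription of nearly all of these genes depends on the coactivator CIITA, which binds no DNA itself and is recruited by factors on the S, X and Y boxes of their promoters. In a normal spleen most class II mRNA comes from B cells.

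The libraries held between 30919272 and 37539631 counts each. The class II genes took 1.65%, 1.57%, 1.48% and 1.504% of the counts in control mice 1 to 4, and 1.49%, 1.46%, 1.36% and 1.33% in tRA mice 1 to 4. The lowest count of any of them in any library was 3558, for H2-Oa, and the highest was 269464, for Cd74, so counting error is small beside the spread between mice. Markers of B cells, which make class II, were present in every library. The 10 B cell markers summed to 7906 ± 531 CPM (counts scaled to library size) in controls and 7990 ± 99.7 in tRA mice (SD, n = 4 each). Cd79a was the highest of them in CPM. Here and in the other lists the gene highest in CPM is named, a rank that takes no account of transcript length. T cell markers, with Lck the highest in CPM, summed to 2100 ± 206 and 2218 ± 41.9 CPM in the same groups.

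None of the 10 class II genes was a DEG, and 8 of the 10 had a lower mean CPM in tRA mice than in controls. By the quasi-likelihood test of edgeR, with Benjamini-Hochberg adjusted p-values (FDR) and a threshold of 0.1, 0 of the 10 passed, and 0% of all 16484 genes tested did. At an unadjusted p under 0.05, the same test gave 1070 genes in all, and DESeq2 called 27 genes at that FDR with 0 of the 10 among them. Of the class II genes, 2 were lower at an unadjusted p under 0.05 (H2-Aa and H2-Oa), where 3.55% of all tested genes were, and 0 were higher, where 2.94% were. DESeq2 gave 5 of the 10 at an unadjusted p under 0.05, beside 1247 of 29817 genes tested, with H2-Ob higher and the other 4 lower. Those 29817 genes were all with any count, unlike the 16484 past the filter, so the shares of the 2 tests have different bases. The log2 fold change was negative for 8 of the 10 and positive for H2-Ob and Ciita, against 49.7% negative over all tested genes. Their median log2 fold change was -0.16, beside 0.0014 over all tested genes.

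The size of that median depended on the processing. It was -0.069 when each library was adjusted for exon length and GC content, with 8 of the 10 still negative and 0 at an unadjusted p under 0.05, beside 895 of 16484 tested genes. That number at an unadjusted p under 0.05 also turned on single mice: it was 6 without tRA mouse 1, when 2105 of 16683 tested genes were under it, and 0 without tRA mouse 2 or without tRA mouse 4, when 762 of 16760 and 657 of 16732 were. The count over all genes thus swung with that of the class II genes. In bulk samples, fewer cells of a type and less RNA per cell cannot be told apart, and this holds for each gene below.

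**Figure D1:**
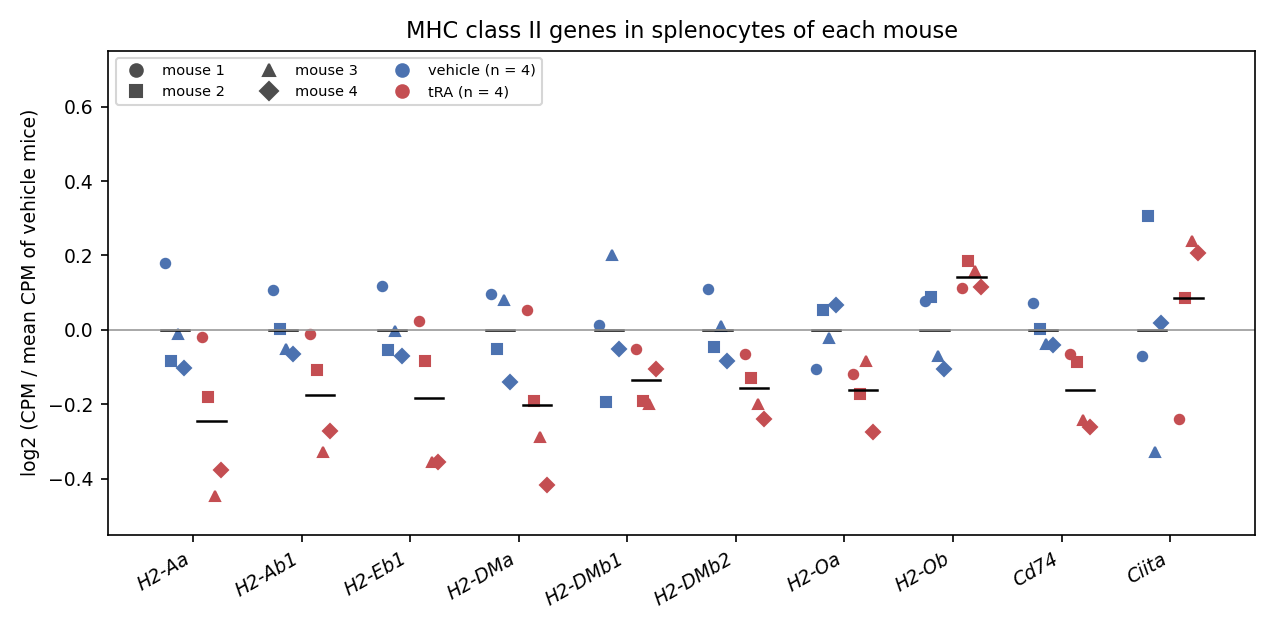
Each point is 1 mouse, plotted as the log2 ratio of its CPM to the mean CPM of the 4 vehicle mice for each of the 10 class II genes, and black bars are the group means on that scale; mouse numbers name samples within a group and do not pair them. For Cd74 the 4 tRA points lie below all control points, for H2-Ob they lie above them, and for the other 8 genes the groups overlap.

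H2-Aa and H2-Ab1 encode the alpha and beta chains of I-A, the class II molecule that all common laboratory strains express. H2-Aa (ENSMUSG00000036594, protein coding, minus strand of chromosome 17 at 34282744 to 34287823 in GRCm38) measured 2897, 2409.7, 2534 and 2379 CPM in control mice 1 to 4. In tRA mice 1 to 4 it measured 2522, 2254, 1877 and 1969.9 CPM. The lowest values were those of tRA mice 3 and 4, while tRA mouse 1 lay within the control range, so the groups overlapped. The means were 2555 ± 237 in controls and 2156 ± 292 in tRA mice (SD, n = 4 each). This was the largest difference among the 10 genes, with a log2 fold change of -0.25 (SE 0.111, 95% interval -0.49 to -0.00048), an unadjusted p of 0.0496 and an FDR of 0.757.

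H2-Ab1 (ENSMUSG00000073421, plus strand of chromosome 17 at 34257689 to 34269419) measured 2729, 2538, 2449 and 2426 CPM in the controls. The tRA mice had 2516, 2352, 2021 and 2101 CPM, again with the lowest values in mice 3 and 4 and with mouse 1 inside the control range. Its log2 fold change was -0.17 (SE 0.092, 95% interval -0.38 to 0.029), with an unadjusted p of 0.086 and an FDR of 0.78. The ratio of H2-Aa to H2-Ab1, both in TPM (counts scaled by exon length as well as library size), was 0.681 ± 0.0343 in controls and 0.647 ± 0.0223 in tRA mice (SD, n = 4 each). Both log2 fold changes were negative and the ratios overlapped between groups. After adjustment for exon length and GC content H2-Aa stood at -0.24 and H2-Ab1 at -0.092.

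H2-Eb1 encodes the beta chain of I-E, the second class II molecule of BALB/c mice. H2-Eb1 (ENSMUSG00000060586, plus strand of chromosome 17 at 34305867 to 34316674) measured 1864, 1655, 1716 and 1637 CPM in the controls and 1747, 1622, 1344 and 1343 CPM in the tRA mice. The tRA values fell into a higher and a lower pair, with mice 3 and 4 again at the bottom and the other 2 within or just under the control range. Its log2 fold change was -0.18 (SE 0.103, 95% interval -0.41 to 0.044), with an unadjusted p of 0.104 and an FDR of 0.787. It was -0.10 after adjustment for exon length and GC content.

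The partner chain of H2-Eb1 is listed in the annotation as H2-Ea-ps, a polymorphic pseudogene, because the C57BL/6 mice behind the reference genome carry an inactive allele. In these BALB/c spleens it was abundant, with 1520.4, 1559, 1614 and 1602 CPM in the controls and 1584, 1555, 1454 and 1317 CPM in the tRA mice. The groups overlapped, and its log2 fold change was -0.091 (SE 0.0806), with an unadjusted p of 0.283 and an FDR of 0.845. H2-Eb2, the other gene of this region that was listed with it, was at 11.0 ± 1.30 CPM in controls and 11.2 ± 1.02 in tRA mice (SD, n = 4 each). Class II alleles of BALB/c and C57BL/6 differ in sequence, and how many reads the reference lost for each gene was not tested.

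Cd74 encodes the invariant chain, which guides class II molecules to endosomes and blocks their peptide groove on the way. Cd74 (ENSMUSG00000024610, plus strand of chromosome 18 at 60803848 to 60812652) measured 7293, 6943, 6764 and 6748 CPM in the controls. The tRA mice had 6638, 6539, 5869 and 5788 CPM. In CPM all 4 tRA values lay below the lowest control, which no other class II gene showed and which 1.63% of all tested genes showed in this direction. In TPM, used below for levels, the groups were not separated, since control mouse 3 at 11125 lay below the tRA values of 11128 to 11815. The gap between the groups was small beside the spread within the tRA group, whose mean was 6208 ± 442 against 6937 ± 253 in controls (SD, n = 4 each). For Cd74 the log2 fold change was -0.16 (SE 0.0866, 95% interval -0.35 to 0.031), with an unadjusted p of 0.0921 and an FDR of 0.78. Adjustment for exon length and GC content brought it to -0.058. The ratio of Cd74 to the sum of H2-Aa, H2-Ab1 and H2-Eb1 in TPM was 1.63 ± 0.0524 in controls and 1.67 ± 0.0906 in tRA mice (SD, n = 4 each), and the ratios overlapped between groups. The size of such ratios depends on the gene lengths used: with the median length of protein-coding transcripts this one was 0.774 ± 0.0273 and 0.799 ± 0.0436.

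**Figure D2:**
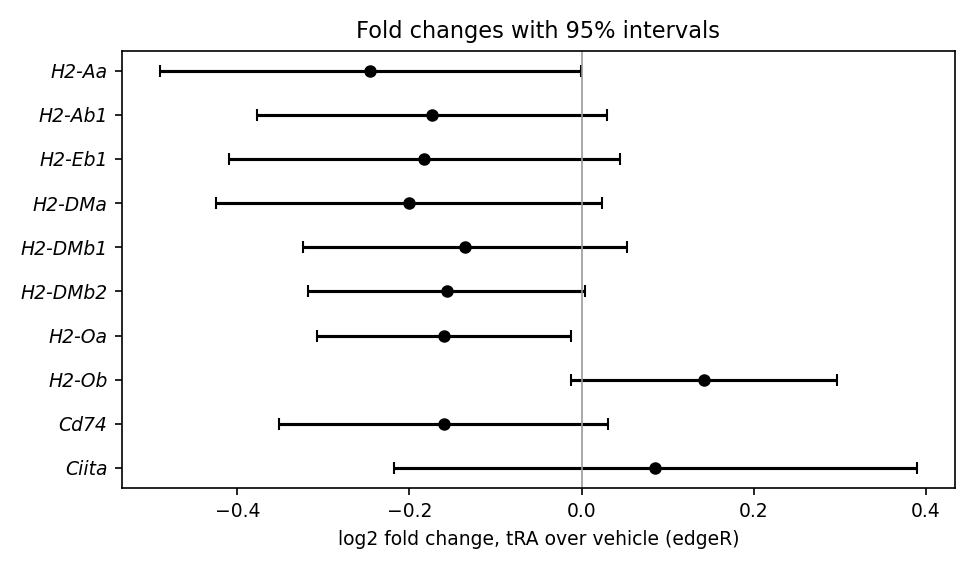
Points are log2 fold changes of tRA over vehicle from the edgeR fit for the 10 class II genes, and bars are their 95% intervals. The intervals of H2-Aa and H2-Oa end just below 0, and the other 8 include 0.

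H2-DMa encodes the alpha chain of DM, the endosomal molecule that frees the groove for peptides. H2-DMa (ENSMUSG00000037649, plus strand of chromosome 17 at 34119541 to 34139101) measured 314, 284, 311 and 267 CPM in the controls and 305, 257, 241 and 220.1 CPM in the tRA mice. Its 3 lowest values were all from tRA mice, and tRA mouse 1 was among the controls. Its log2 fold change was -0.20 (SE 0.102), with an unadjusted p of 0.0747 and an FDR of 0.778. It was -0.15 after adjustment for exon length and GC content. Exons of this gene overlap those of Brd2 on the opposite strand, and the library kit does not mark strand, so reads there cannot be told apart.

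The DM beta chain is encoded by a pair of neighbouring genes that are near-identical copies, and how reads that fit both were divided is uncertain. H2-DMb2 (ENSMUSG00000037548, plus strand of chromosome 17 at 34143307 to 34151555) measured 635, 570.5, 593 and 556 CPM in the controls and 563, 538, 513 and 498 CPM in the tRA mice. Only tRA mouse 1 exceeded the lowest control, and the log2 fold change was -0.16 (SE 0.0729), with an unadjusted p of 0.0554 and an FDR of 0.761. H2-DMb1 (ENSMUSG00000079547, plus strand of chromosome 17 at 34153072 to 34160230) measured 226, 196, 258 and 216 CPM in the controls and 216, 196, 195 and 208 CPM in the tRA mice. Control mouse 3 was the highest, the groups overlapped widely, and the log2 fold change was -0.14 (SE 0.0855), with an unadjusted p of 0.142 and an FDR of 0.793. It was -0.068 without control mouse 3. After adjustment for exon length and GC content it was -0.053 for H2-DMb1 and -0.080 for H2-DMb2. In TPM, the ratio of H2-DMa to both beta chain genes together was 0.181 ± 0.00562 in controls and 0.175 ± 0.0166 in tRA mice (SD, n = 4 each), or 0.309 ± 0.00954 and 0.298 ± 0.0282 with coding transcript lengths, and overlapped either way.

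H2-Oa and H2-Ob encode the alpha and beta chains of DO, which binds DM and limits its action, mainly in B cells. H2-Oa (ENSMUSG00000024334, plus strand of chromosome 17 at 34092340 to 34095234) measured 122, 136, 129.5 and 138 CPM in the controls and 121, 117, 124 and 109 CPM in the tRA mice. Control mouse 1 fell among the tRA values and the other 3 controls lay above them all. The log2 fold change was -0.16 (SE 0.0668, 95% interval -0.31 to -0.013), with an unadjusted p of 0.0358, the lowest of the 10 genes, and an FDR of 0.757. It was -0.048 after adjustment for exon length and GC content. Exons of H2-Oa overlap those of BC051537, an antisense transcript, and the 2 cannot be told apart without strand.

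H2-Ob (ENSMUSG00000041538, plus strand of chromosome 17 at 34238903 to 34254414) had a positive log2 fold change. It measured 437, 441, 395 and 385 CPM in the controls and 448, 471, 463 and 449 CPM in the tRA mice. In CPM all 4 tRA values were above the highest control, as 1.91% of all tested genes were, and they lay close together at 457 ± 11.2 against 414 ± 28.6 (SD, n = 4 each). Its log2 fold change was 0.14 (SE 0.0699, 95% interval -0.012 to 0.30), with an unadjusted p of 0.0669 and an FDR of 0.778. The gap was narrow, and in TPM the groups overlapped, with 244 and 253 in control mice 1 and 2 and 244 in tRA mouse 1.

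The log2 fold changes of the DO chains thus had opposite signs, and neither passed the FDR. After adjustment for length and GC content that of H2-Oa was near 0 at -0.048, and that of H2-Ob was 0.12. The contrast was singled out after the values were seen and given no test. The count of H2-Ob per count of H2-Oa was 3.58, 3.23, 3.05 and 2.80 in control mice 1 to 4 and 3.70, 4.03, 3.73 and 4.13 in tRA mice 1 to 4. Because the pair was picked for its opposite signs, how the groups lie in this ratio is no support for a difference. DO transcripts relative to DM transcripts, both summed over their genes in TPM, were 0.308 ± 0.0281 in controls and 0.340 ± 0.0202 in tRA mice (SD, n = 4 each). With coding transcript lengths they were 0.457 ± 0.0394 and 0.526 ± 0.035, and the groups overlapped either way.

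Ciita, the coactivator that the other genes share, had a slightly higher mean in tRA mice. Ciita (ENSMUSG00000022504, plus strand of chromosome 16 at 10480059 to 10528418) measured 262, 340.2, 219 and 279 CPM in the controls and 233, 292, 325 and 318 CPM in the tRA mice. It had the highest coefficient of variation of the 10 genes in each group, 18.2% in controls and 14.3% in tRA mice, and the groups overlapped over most of their range. The means were 275 ± 50.2 and 292 ± 41.6 (SD, n = 4 each). Its log2 fold change was 0.086 (SE 0.138, 95% interval -0.22 to 0.39), with an unadjusted p of 0.547 and an FDR of 0.913. After adjustment for exon length and GC content it was 0.062. Its sign rested on control mouse 3, the lowest, without which it was -0.016. Exons of Ciita overlap those of Dexi on the opposite strand, which cannot be told apart here.

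The order of the genes by level, in reads as mapped, was the same at its ends whichever transcript length was used. How many reads the reference lost for each gene was not tested. Nor was how reads that fit both DM beta chain genes were divided, and both bear on the orders given here. With the union of exons as length, Cd74 came first at 11893 ± 728 TPM over all 8 mice (SD), followed by H2-Ab1 at 2827 ± 215, H2-Eb1 at 2521 ± 211 and H2-Aa at 1880 ± 207. H2-DMb2 followed at 971 ± 56.4 TPM and H2-DMb1 at 386 ± 23.1. Each of these exceeded the next in 8 of 8 mice. H2-Oa at 269 ± 22.0, H2-Ob at 247 ± 26.7 and H2-DMa at 242 ± 21.6 TPM were not separated beyond their spread, since H2-Oa exceeded H2-Ob in 6 of 8 mice and H2-Ob exceeded H2-DMa in 3 of 8. The ranks of these 3 differed by group. Taken as H2-Oa, H2-Ob and H2-DMa, the means were 278, 229 and 253 TPM in controls and 261, 265 and 230 in tRA mice. Ciita was last at 91.1 ± 18.1 TPM over all 8 mice.

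With coding transcript lengths, a choice made after the values were seen, Cd74, H2-Ab1 and Ciita kept the first, second and last places at 7263, 3995 and 104 TPM. H2-Aa then stood at 3575 TPM, above H2-Eb1 at 1688, and H2-Ob at 346 TPM stood above H2-DMa at 246, H2-DMb1 at 226 and H2-Oa at 170.4. So H2-DMb1 stood above H2-Oa in 8 of 8 mice with either length. Otherwise the order of the DM and DO chains other than H2-DMb2, and that of H2-Aa and H2-Eb1, cannot be told from these counts. H2-Ea-ps reached 4475 ± 197 TPM by the union of exons and 2190 ± 102 by coding transcript length (SD over 8 mice). Its own length was 1036 bases in both, so that only the scaling by the other genes differed. It stood above H2-Ab1, H2-Eb1 and H2-Aa on the first scale, and between H2-Aa and H2-Eb1 on the second.

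A common pattern over the mice ran through 6 of the 10 genes. Each gene's log2 CPM was compared with the mean of the centred log2 CPM of all 10 over the 8 mice, as a description with no test, since each gene is part of that mean. Pearson's r was 0.987 for Cd74, 0.973 for H2-Ab1, 0.964 for H2-DMb2, 0.959 for H2-Aa, 0.954 for H2-Eb1 and 0.919 for H2-DMa. H2-Oa at 0.531 and H2-DMb1 at 0.433 followed it loosely, and H2-Ob at -0.349 and Ciita at -0.461 ran against it. The mean itself was 0.12, 0.067, 0.042 and 0.0072 in control mice 1 to 4 and 0.026, -0.023, -0.11 and -0.13 in tRA mice 1 to 4. Its lowest values were thus those of tRA mice 3 and 4, and tRA mouse 1 lay within the control range.

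Among the 45 pairs of class II genes, 29 had a positive r over the 8 mice, from -0.852 to 0.978 with a median of 0.453. H2-Aa and H2-Eb1 were the closest pair, and H2-DMb1 and Ciita the most opposed. With each group centred on its own mean, H2-Aa and H2-Eb1 still had an r of 0.969 and H2-DMb1 and Ciita one of -0.883, while the median over pairs was 0.289. H2-Ob, which ran against the class II mean over all 8 mice, had a positive r with H2-Aa, H2-Ab1, H2-Eb1, H2-DMa, H2-DMb2 and Cd74 once the groups were centred, from 0.130 to 0.387. Those 6 genes varied together within groups as well as over all mice, and Ciita had a negative r with each of them both ways.

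The class II genes summed to 16779, 15513, 15368 and 15031 CPM in control mice 1 to 4 and to 15310.1, 14638, 12970.3 and 13003 CPM in tRA mice 1 to 4. Immediate early genes, which cells induce within minutes of a stimulus or of handling, were lowest in the same mice. The 10 genes of that list, with Fos the highest in CPM, summed to 16337, 15458, 14514 and 13269 CPM in the controls and 15549, 12007, 5586 and 7059 CPM in the tRA mice. All 10 had a negative log2 fold change with a median of -0.49, and none was at 0 in any group. Over all tested genes 49.7% were negative, and this list was chosen with earlier results of these data known. Of the 10, 3 were lower at an unadjusted p under 0.05, beside 3.55% of all tested genes, with 0 passing the FDR. Those were Fosb at -0.71, Jun at -0.58 and Egr1 at -0.80. In tRA mice 3 and 4 the immediate early sum was 37.51% and 47.4% of the control mean and the class II sum 82.8% and 83.0% of it. The part of the immediate early genes in the class II values was not tested.

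**Figure D3:**
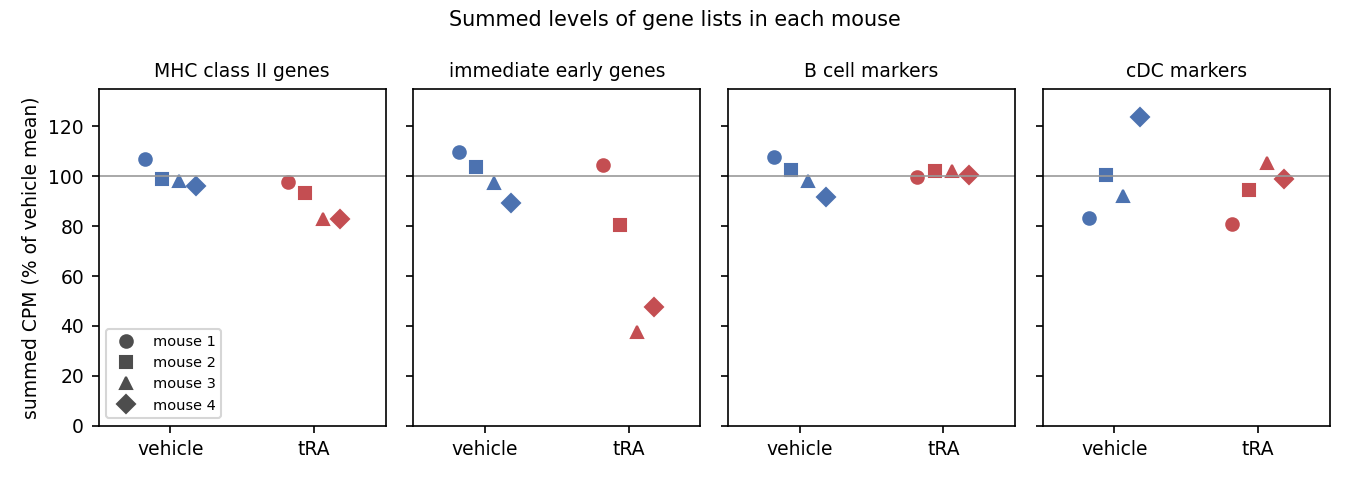
Each point is 1 mouse and gives the summed CPM of a gene list as a percentage of the mean of the 4 vehicle mice, for the 10 class II genes, 10 immediate early genes, 10 B cell markers and 10 conventional dendritic cell (cDC) markers. tRA mice 3 and 4 are the lowest for class II and immediate early genes and are within the control range for B cell and cDC markers.

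The summed markers of B cells were not lowest in tRA mice 3 and 4. The 10 B cell markers summed to 8507, 8101, 7760.0 and 7255 CPM in the controls and 7873, 8080.1, 8065 and 7941 CPM in the tRA mice, with 6 of 10 log2 fold changes positive, a median of 0.025 and 0 genes at an unadjusted p under 0.05. Single markers differed from the sum: Cd79a measured 1539.9, 1370.2, 1399 and 1273 CPM in the controls and 1377, 1302, 1227 and 1179 CPM in the tRA mice, with mice 3 and 4 the lowest. Cd79a had a log2 fold change of -0.13, the second lowest of the list, with an FDR of 0.793. The list ran from -0.15 for Blk to 0.20 for Ms4a1, both picked after their values were seen, with an FDR of 0.761 and 0.793. Class II transcripts relative to B cell markers, both summed in TPM, were 2.62 ± 0.116 in controls and 2.35 ± 0.167 in tRA mice (SD, n = 4 each). The highest tRA ratio, 2.53, was above the lowest control, 2.52, so the groups touched.

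The 10 cDC markers, with Itgax the highest in CPM, summed to 134, 162, 149 and 199.5 CPM in the controls and 130.4, 152, 169.8 and 159 CPM in the tRA mice. Of their log2 fold changes 6 of 10 were negative, from -0.23 for Clec10a to 0.27 for Cd209a, with a median of -0.070. Cd209a had an unadjusted p of 0.0486 and an FDR of 0.757, and was the 1 gene of the list at an unadjusted p under 0.05. The 10 macrophage and monocyte markers, with Csf1r the highest in CPM, summed to 738 ± 125 CPM in controls and 710.3 ± 123 in tRA mice (SD, n = 4 each), with 7 of 10 negative, a median of -0.030 and 0 at an unadjusted p under 0.05. The part of these cells in the class II values was not tested.

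Other genes of the pathway were examined as fixed lists, and 0 of their genes passed the FDR. The factors that bind the S, X and Y boxes (Rfx5, Rfxank, Rfxap, Creb1 and the NF-Y subunits) gave 0 of 7 genes at an unadjusted p under 0.05, with 5 of 7 positive and a median log2 fold change of 0.040. Creb1 had the highest CPM of the list, 162 ± 19.6 CPM in controls and 166 ± 18.9 in tRA mice (SD, n = 4 each). In tRA mice 3 and 4, the lowest for class II, the 7 genes summed to 469 and 501 CPM. The controls were at 453 to 459 except for control mouse 1 at 524.

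Of 16 genes that induce or repress Ciita, 9 were positive and 7 negative, with a median of 0.028 and Jak1 the highest in CPM. Ifng, the cytokine that induces Ciita outside the B cell lineage, measured 15.8, 14.8, 17.9 and 14.1 CPM in the controls and 15.2, 10.5, 7.75 and 9.20 CPM in the tRA mice. Only tRA mouse 1 was within the control range, and the log2 fold change was -0.55 (SE 0.185), with an unadjusted p of 0.0125 and an FDR of 0.757. Spi1, the PU.1 factor of B cells and myeloid cells, had a log2 fold change of -0.18 (SE 0.0736), with an unadjusted p of 0.035 and an FDR of 0.757.

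Of 9 genes of endosomal antigen processing, most of them enzymes that cut the invariant chain and antigens, 7 had a negative log2 fold change, beside 49.7% of all tested genes. Their median was -0.16, and 0 passed the FDR. Cathepsin S (Ctss), which removes the last part of the invariant chain in B cells and dendritic cells, had the highest CPM of the list, 493 ± 35.5 CPM in controls and 442 ± 26.2 in tRA mice (SD, n = 4 each). Its log2 fold change was -0.16, with an unadjusted p of 0.0621 and an FDR of 0.776. Lgmn, an endosomal protease, was lower at -0.20 (SE 0.0849), with an unadjusted p of 0.0385 and an FDR of 0.757, and was the 1 gene of 9 at an unadjusted p under 0.05.

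Surface class II is removed after ubiquitination by MARCH1, and CD83 opposes this. March1 measured 131, 142, 101 and 100.01 CPM in the controls and 128, 157, 122 and 170.4 CPM in the tRA mice, with a log2 fold change of 0.28 (SE 0.139), an unadjusted p of 0.0667 and an FDR of 0.778. Cd83, the highest in CPM of the 3 genes of this list, measured 273, 222, 230.2 and 269 CPM in the controls and 462, 268, 115 and 122 CPM in the tRA mice. Its tRA values spread on both sides of the controls, with mouse 1 high and mice 3 and 4 low, and its group means were nearly equal at 248 ± 26.2 and 242 ± 163 (SD, n = 4 each). March8 had a log2 fold change of -0.096, and 0 of these 3 genes were at an unadjusted p under 0.05.

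The class I pathway shows cytosolic peptides to CD8 T cells. Of its 12 genes 9 were negative, beside 49.7% of all tested genes. Their median log2 fold change was -0.10, and that of the class II genes was -0.16. The difference between these medians was not tested. H2-D1, the highest in CPM, was at 2473 ± 100.4 CPM in controls and 2229 ± 226 in tRA mice (SD, n = 4 each), a log2 fold change of -0.15. H2-K1 had -0.17 and B2m -0.050. Psmb9, an immunoproteasome subunit, was lower at -0.18 with an unadjusted p of 0.035, and Erap1, which trims peptides, was higher at 0.17 with an unadjusted p of 0.0432, both with an FDR of 0.757.

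Outside the set, the 5 genes whose log2 CPM was closest to the class II mean over the 8 mice were Timm23 with an r of 0.980, Snora57 with 0.964, Zfp703 with 0.964, Jund with 0.962 and Map1lc3a with 0.960. They are the top of all tested genes outside the set and are a description only. Jund, a member of the AP-1 family, was at 716 CPM in controls and 413 in tRA mice. The 5 most opposed were Fnbp4 with -0.976, 6030458C11Rik with -0.970, Ccr9 with -0.967, Gm42372 with -0.967 and Galm with -0.967. None of these 10 genes passed the FDR.

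The class II promoters carry a module in which an X box, bound by the RFX complex, precedes a Y box, bound by NF-Y. The promoter table of RefSeq, in GRCm38.p6, held 8 windows for 7 of the 10 genes, each from 250 bases before to 50 after a transcription start, among 32851 windows. The Y box core ATTGG was present on either strand in windows of 7 of 7 of these genes. It was in 7 of the 8 windows and in 37.4% of all windows. GCAAC, found at the end of many X boxes, was present in 5 of 7 and in 35.2% of all windows. GCAAC followed after 20 to 40 bases by ATTGG on the same strand was present in H2-Oa, H2-Ob, H2-Aa and H2-Eb1. These were 4 of 7 genes and 4 of the 8 windows, beside 1.01% of all windows. ATGATGC, a motif chosen after the windows were read, was in 4 of 7 genes (H2-DMb2, H2-DMb1, H2-Ob and H2-Eb1). It was in 4 of the 8 windows and in 2.46% of all windows. These motifs do not overlap each other in these windows, and a match is a description of the letters and not of binding.

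The 4 stretches that hold the spaced pair are shown because all carry the same arrangement, while the log2 fold changes of their genes were negative for H2-Aa, H2-Eb1 and H2-Oa and positive for H2-Ob. Capitals mark GCAAC and ATTGG, each sequence is of the gene's own strand, and positions are in GRCm38.p6. The ATTGG begins at -48 from the transcription start in H2-Aa (chr17:34287862-34287916, minus strand), -59 in H2-Eb1 (chr17:34305763-34305817, plus strand), -43 in H2-Oa (chr17:34092291-34092345, plus strand) and -57 in H2-Ob (chr17:34238803-34238857, plus strand). The gap between the capitals is 28, 27, 28 and 25 bases in that order. In GENCODE the stretches lie upstream of their genes, except for the last 6 bases of that of H2-Oa, which are in its first exon. Those of H2-Oa and H2-Eb1 also lie within the antisense genes BC051537 and Gm20513.
H2-Aa: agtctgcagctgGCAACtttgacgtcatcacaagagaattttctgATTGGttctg
H2-Eb1: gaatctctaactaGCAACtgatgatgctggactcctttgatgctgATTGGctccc
H2-Oa: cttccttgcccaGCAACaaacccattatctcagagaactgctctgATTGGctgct
H2-Ob: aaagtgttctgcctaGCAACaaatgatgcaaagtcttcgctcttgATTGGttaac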

How the data were processed

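Total splenocyte RNA of 8 mice was sequenced with the Illumina TruSeq v2 RNA kit, and the authors deposited a raw count per gene and mouse. The paper's methods name ea-utils, Btrim, Bowtie2/Tophat2 and HTSeq, whereas the submitters' processing notes name STAR 2.5.2b, featureCounts 1.5.1, DESeq2 1.26.0 and GRCm38, and strand and multi-mapping settings are not given in the sources used here. A deposited DESeq2 comparison (mean counts, fold changes, standard errors, test statistics and p-values) was not used. Of 51826 identifiers, 51633 had an entry in GENCODE M21, which gave symbols, positions, lengths and GC content, and 193 did not.

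The analysis of the counts ran in edgeR 4.0.16, with limma 3.58.1, under R 4.3.3. Genes were kept by filterByExpr (minimum count 10), scaled by TMM, and tRA was compared with control, 4 mice each, by the quasi-likelihood test with Benjamini-Hochberg adjustment over all genes tested and an FDR threshold of 0.1. CPM used the TMM-scaled library sizes. The procedure was tested on simulated counts. Alternatives were DESeq2 1.42.0, RLE or library size normalization, other filters, protein-coding genes only, a loess offset on exon length and GC content (span 0.3), a replicate block, and leaving out each mouse. Figures were drawn with matplotlib 3.10.9.

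The 10 class II genes and the other gene lists were chosen with earlier results of these data known. Named genes are the 10, plus the 5 most and 5 least like the class II mean in pattern. Of each other list, they are the gene highest in mean CPM and those at an FDR under 0.1 or unadjusted p under 0.05. Blk, Ms4a1, Clec10a, H2-Eb2, H2-K1, B2m, March1, March8, Slamf7, Prdm1, Xbp1 and Irf4 were added after their values were seen. Promoter sequences are from RefSeq.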

Additional observations from a re-analysis of the deposited data

Results flagged for a closer look

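Of 52 groups of 4 mice examined, over the class II genes and the summed lists, 3 had 1 mouse far from the other 3, and chance alone flags about 1 group in 20. The summed CPM of the factors on the S, X and Y boxes was 524 in control mouse 1 and 453 to 459 in the other controls, a gap of 0.907 of the group's range. In the tRA group the same sum was 469 in mouse 3 and 497 to 501 in the others, a gap of 0.858 of the range. The summed CPM of plasma cell markers was 1428 in control mouse 4 and 1225 to 1258 in the other controls, a gap of 0.835 of the range. None of the 10 class II genes had such a mouse in either group.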

How the results depend on the processing

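Under 17 alternatives, 0 of the 10 class II genes passed the FDR threshold, and at least 8 had a negative log2 fold change. Their median log2 fold change, -0.16, moved to -0.069 with the length and GC offset. Leaving out 1 mouse at a time gave medians from -0.19 to -0.13, and the other unblocked settings from -0.16 to -0.13. The log2 fold change of Ciita, 0.086, ranged from -0.016 to 0.20 as each mouse was left out. It was -0.016 without control mouse 3, when 9 of the 10 were negative, and no other gene of the 10 changed sign. Genes called over all genes tested numbered 27 with DESeq2, 6 when low counts were kept and 0 to 3 as each mouse was left out, with 3 without tRA mouse 4. The cause of these differences was not tested.

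Mice with the same number deviated from their group means with correlations of 0.157, -0.023, -0.014 and 0.259, not all over 0.1, so the numbers were not taken to pair the mice. Under the replicate block 0 genes were called and the class II median was -0.16, and with the block and the length and GC offset it was -0.068.

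With 4 mice a group, and reference alleles of another strain, differences of the size seen here are near the spread between mice. The lowest class II count in any library was 3558, and the effect of depth was not tested.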

Other observations

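All 10 neutrophil precursor granule genes had a negative log2 fold change, with a median of -0.90, and an unadjusted p under 0.05. Over all tested genes 49.7% were negative, and 3.55% were lower at that p. The 10 were Ngp, the highest in CPM, Camp, Ltf, Lcn2, Elane, Mpo, Prtn3, Ctsg, Cebpe and Ms4a3. None passed the FDR, and the lowest FDR of all genes, 0.135, was that of Camp. The list was chosen with earlier results of these data known. The paper lists Camp, Ngp and Ltf among its own DEGs of these mice, so the count is no support for a difference. The summed CPM of these 10 genes was 545, 684, 720.0 and 617 in control mice 1 to 4. In tRA mice 1 to 4 it was 243, 303, 331 and 479.8. So tRA mouse 1, which had the highest summed class II CPM of its group, had the lowest sum here. Plasma cell markers had 6 of 10 log2 fold changes negative, with a median of -0.13. Jchain was the highest in CPM at 609 ± 80.3 CPM in controls and 443 ± 72.3 in tRA mice (SD, n = 4 each). Of the 10 genes, 4 were lower at an unadjusted p under 0.05, beside 3.55% of all tested genes. These were Jchain at a log2 fold change of -0.46, Mzb1 at -0.31, Tnfrsf17 at -0.78 and Derl3 at -0.39, and 0 passed the FDR. The 4 positive genes were Slamf7 at 0.22, Prdm1 at 0.11, Xbp1 at 0.020 and Irf4 at 0.0093.

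Plasmacytoid dendritic cell markers, with Tcf4 the highest in CPM, had 6 of 7 genes negative, beside 49.7% of all tested genes. Bst2 at -0.32 and Ly6d at -0.34 were lower and Ccr9 at 0.45 higher, each at an unadjusted p under 0.05, with 0 passing the FDR. Over all tested genes 3.55% were lower and 2.94% higher at that p. T cell markers were positive for 8 of 10 genes with a median of 0.11, and Cd28 was higher at 0.22 with an unadjusted p of 0.0482. Erythroid markers, with Hbb-bs the highest in CPM, spread widely at 1314 ± 847 summed CPM in controls and 1767 ± 1431 in tRA mice (SD, n = 4 each).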
